A study of Mus musculus with 6 samples.

Results

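The genes described here are 31 published targets of YAP/TAZ and TEAD, the transcription complex at the end of the Hippo pathway, measured in pancreatic islets of mice that lack Tead1 in their beta cells. A gene was kept where the array held a probe set annotated with its symbol alone. This left 30 of the 31 genes among 18193 genes measured, and Areg, a growth factor of the EGF family, was not analysed here. Each gene was read from its brightest probe set, and the 30 genes were represented by 71 probe sets in all.

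TEAD proteins bind DNA and have little activity of their own. They recruit the coactivators Yap1 and Wwtr1 (TAZ), which enter the nucleus when the Hippo kinases Stk3, Stk4, Lats1 and Lats2 are inactive. The complex is known for switching on genes of the extracellular matrix, the cytoskeleton, growth factors and proteins that hold Yap1 back, among them Ccn1, Ccn2 and Ankrd1, which are widely used as reporters of its activity.

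Islets came from 12-week-old male mice of strain C57Bl6, and each of 6 arrays carried total RNA of 1 sample. The Tead1KO group (3 arrays) had a beta cell-specific Tead1 deletion, and the Flox group (3 arrays) was its control. The labels name no Cre driver and do not say whether Flox mice carried a Cre transgene, nor whether each array stands for 1 mouse. If arrays of a group shared animals, the p-values measure technical spread only. Signals are deposited log2 values, and 27 control probe sets for bacterial RNA never added to the samples read 2.87 to 4.70. A gene whose group mean lay at or below 4.70 is called within background.

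The bases before the start of these genes were searched for the letters of the TEAD site. The motif GGAATG, the core of the TEAD binding site, was searched on both strands in the 250 bases before each RefSeq gene start (build GRCm38.p6), together with TGANTCA, which reads the same on both strands, and no target window held both. Promoters were on hand for 20 of the 31 genes. GGAATG occurred in 7 of these 20 (35.0%), namely Ajuba, Ankrd1, Axl, Ccn1, Crim1, Edn1 and Ptpn14, and in 14.4% of 27025 genes with a promoter in the same table. TGANTCA, the site of the AP-1 factors that often share enhancers with TEAD, occurred in 1 of the 20 (F3) and in 7.82% of all genes. The sequences below, with GGAATG or its reverse complement in capitals, are those of the reporters Ccn1 (chr3:145649986-145650235, minus strand) and Ankrd1 (chr19:36119845-36120094, minus strand), and of Ptpn14 (chr1:189728018-189728267, plus strand), a target that binds Yap1. Gadd45a (chr6:67037408-67037657, minus strand) and Amotl1 (chr9:14615001-14615250, minus strand) are shown because they had the smallest p-values among the targets, and neither window holds the motif.
Ccn1: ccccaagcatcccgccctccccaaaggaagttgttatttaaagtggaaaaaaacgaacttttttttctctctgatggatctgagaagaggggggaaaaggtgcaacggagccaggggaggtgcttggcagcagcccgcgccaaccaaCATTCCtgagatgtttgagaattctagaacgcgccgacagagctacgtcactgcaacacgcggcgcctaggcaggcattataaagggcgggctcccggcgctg
Ankrd1: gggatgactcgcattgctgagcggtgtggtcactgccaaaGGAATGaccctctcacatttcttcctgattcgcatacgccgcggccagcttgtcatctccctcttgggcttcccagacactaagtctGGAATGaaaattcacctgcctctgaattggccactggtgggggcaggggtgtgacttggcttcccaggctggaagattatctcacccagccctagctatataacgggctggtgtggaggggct
Ptpn14: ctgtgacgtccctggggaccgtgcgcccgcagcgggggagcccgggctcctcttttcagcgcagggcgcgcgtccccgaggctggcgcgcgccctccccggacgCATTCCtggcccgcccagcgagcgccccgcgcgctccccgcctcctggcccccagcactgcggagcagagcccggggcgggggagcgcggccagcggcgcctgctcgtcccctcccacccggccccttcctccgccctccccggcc
Gadd45a: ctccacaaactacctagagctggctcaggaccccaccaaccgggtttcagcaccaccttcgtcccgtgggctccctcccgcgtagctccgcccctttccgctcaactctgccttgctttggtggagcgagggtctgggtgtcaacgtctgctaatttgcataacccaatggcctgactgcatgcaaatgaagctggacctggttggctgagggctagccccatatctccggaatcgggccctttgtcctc
Amotl1: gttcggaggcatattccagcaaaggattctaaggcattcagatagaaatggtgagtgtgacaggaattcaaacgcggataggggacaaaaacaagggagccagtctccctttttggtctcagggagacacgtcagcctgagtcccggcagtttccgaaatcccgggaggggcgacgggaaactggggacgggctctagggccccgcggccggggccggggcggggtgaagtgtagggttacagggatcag
The match in Ccn1 begins 103 bases before the start, that in Ptpn14 146 bases before it, and those in Ankrd1 at 123 and 210 bases. A match is a string of letters and not a measured binding site.

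The targets did not show a shared shift to lower signal in Tead1KO islets, and single genes lay on both sides of 0. Of the 30, 0 passed the test over all genes (limma, Benjamini-Hochberg adjusted p under 0.05), where 94 of 18193 genes (0.517%) did. A count of 0 among 30 genes is near that share and is not a result about the targets. The smallest adjusted p of a target was 0.169. At an unadjusted p under 0.05, 3 targets (10%) were higher in Tead1KO islets, against 3.08% of all genes, and 1 (3.33%) was lower, against 4.33% of all genes. The 3 Tead1KO arrays lay wholly above the 3 Flox arrays for 5 targets (16.7%, against 5.80% of all genes) and wholly below them for 2 (6.67%, against 7.27% of all genes).

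The median difference of the 30 targets was 0.07 on the log2 scale (Tead1KO minus Flox), beside -0.01 for all genes, and single targets ranged from -0.54 to 0.84. Of the 30, 18 lay above 0 and 12 below, and 48.9% of all genes lay above 0. In 6 targets both groups were within background, so no level was measured in either group: Ankrd1, Tgfb2, Crim1, F3, Ajuba and Foxf2. The other 24 had a median of 0.08, beside -0.04 for all genes above background in 1 group or more. Among genes called changed and above background in both groups, the smallest difference was 0.89 in size, which is larger than that of every target. These are whole islets, so fewer cells of a type and less RNA per cell cannot be told apart.

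**Figure D1:**
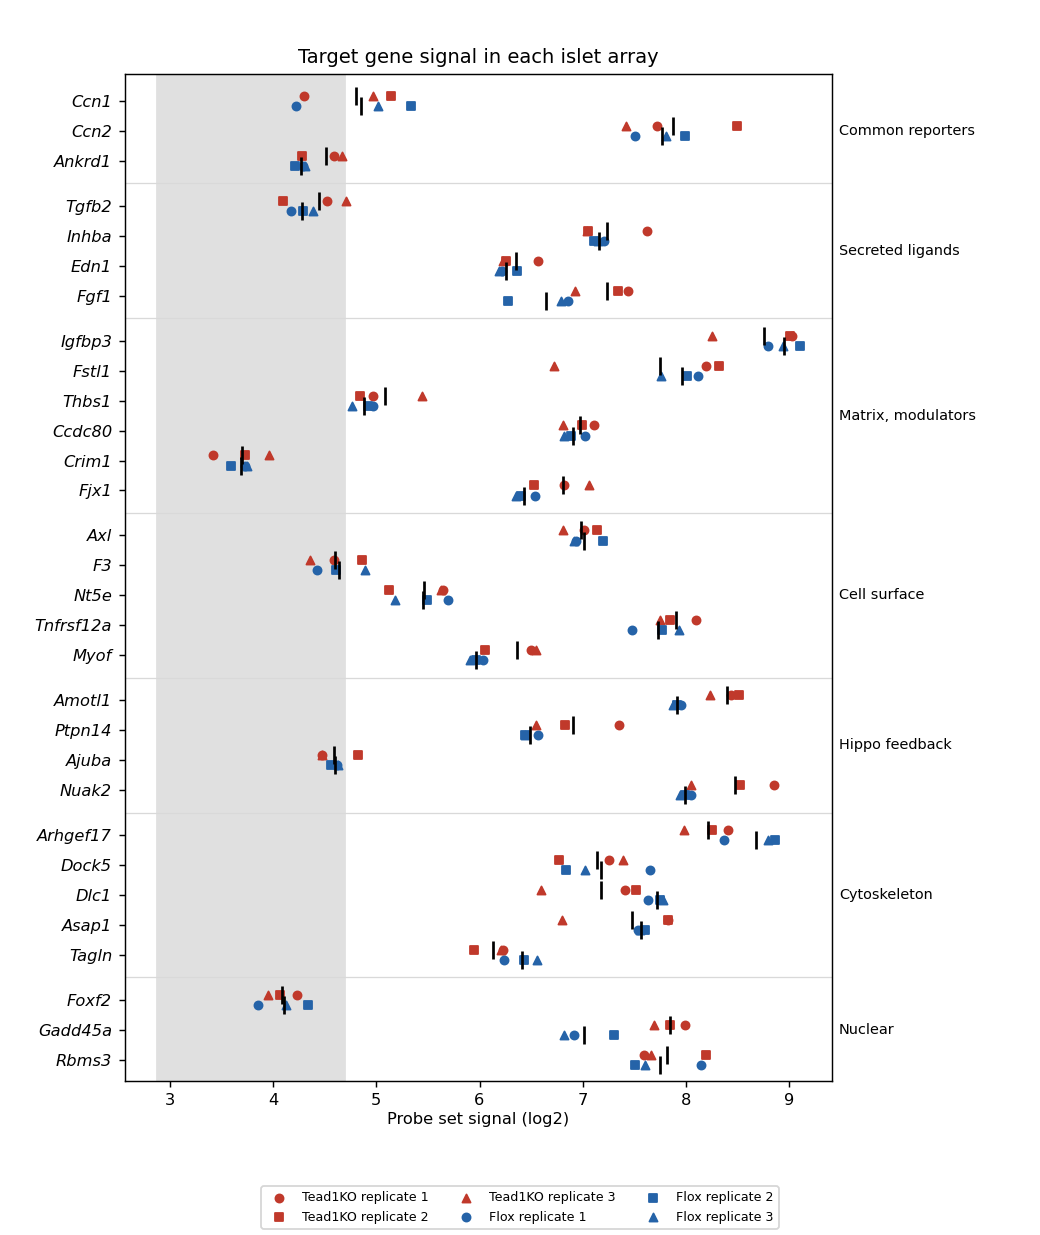
Log2 probe set signal (x axis) of the 30 target genes in each array, grouped by role; red points above are Tead1KO, blue points below are Flox, symbols give the replicate and black ticks the group means. The grey band is the background of 2.87 to 4.70, which holds both group means of 6 targets; the groups are wholly apart for Gadd45a, Amotl1, Fgf1, Myof, Nuak2, Dlc1 and Tagln.

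Tead1 itself was not lower in every knockout array. It read 6.72, 7.49 and 5.95 in Tead1KO islets, against 7.22, 6.99 and 7.40 in Flox islets (log2 difference -0.49, SE 0.36, limma adjusted p = 0.774, exact two-sided permutation p = 0.4, where 0.1 is the smallest possible). At this probe set, the brighter of the Tead1 probe sets, the second array labelled Tead1KO thus exceeded all Flox arrays. The dimmer Tead1 probe set read 5.58, 5.41 and 4.98 in Tead1KO islets, against 6.14, 5.33 and 5.11 in Flox islets. There the difference was -0.21 (exact two-sided permutation p = 0.7). Tead1KO replicate 2 lay below Flox replicate 1 and above Flox replicates 2 and 3. No source used here places these probe sets inside or outside the deleted part, and Tead1 signal is therefore no test of the labels. Array quality also differed. Spiked hybridization controls averaged 12.09, 10.87 and 13.23 in the Tead1KO arrays, against 11.89, 10.96 and 10.60 in the Flox arrays, and Tead1KO replicate 3 had the lowest mean correlation with the others (0.969, against 0.984 to 0.986). It was the lowest of the 6 arrays for 11 of the 30 targets (36.7%, and 37.9% of all genes) and the highest for 6 (20%, and 26.1% of all genes). Without it the targets' median was 0.14, beside 0.004 for all genes, and 23 of 30 targets lay above 0, with still 0 called.

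Of the 3 common reporters, none separated the groups, and Ankrd1 was within background. A count of 0 of 3 is near the share of all genes (5.80% wholly higher, 7.27% wholly lower). It is no result about the reporters. Ccn2, a secreted matricellular protein also known as CTGF, read 7.72, 8.50 and 7.42 in Tead1KO islets, against 7.51, 7.99 and 7.80 in Flox islets. The highest array and the lowest array were both Tead1KO, and the difference of 0.11 had a 95% interval of -0.55 to 0.77 (limma adjusted p = 0.922). Without Tead1KO replicate 2 it was -0.20, and without Tead1KO replicate 3 it was 0.34.

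Ccn1, a related matricellular protein also known as CYR61, read 4.30, 5.15 and 4.96 in Tead1KO islets, against 4.22, 5.33 and 5.01 in Flox islets. Both replicate 1 arrays lay within background, and the groups overlapped over their whole range (difference -0.05, limma adjusted p = 0.971). Those arrays also had the lowest pancreatic acinar signal. The summed acinar marker signal (6 of 7 markers measured, log2 of the sum) was 14.54, 16.34 and 15.64 in Tead1KO islets, against 14.52, 16.24 and 16.50 in Flox islets. Its part in the Ccn1 values was not tested. The probe set of Ccn1 is of a type that can match several transcripts, and the other 3 Ccn1 probe sets were within background. Ankrd1, an ankyrin repeat protein first described in heart, read 4.59, 4.28 and 4.67 in Tead1KO islets, against 4.29, 4.21 and 4.31 in Flox islets, all within background.

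Among the secreted ligands, Fgf1 stood apart. Fgf1, a growth factor that binds all FGF receptors, read 7.44, 7.34 and 6.93 in Tead1KO islets, against 6.86, 6.28 and 6.79 in Flox islets. Every Tead1KO array lay above every Flox array, by a margin smaller than the range within each group. The difference was 0.59 (SE 0.22, 95% interval 0.08 to 1.11, limma unadjusted p = 0.0278, adjusted p = 0.566), so it did not pass. A second Fgf1 probe set read 7.32, 7.41 and 7.36 in Tead1KO islets, against 6.82, 5.88 and 6.75 in Flox islets, and another one 5.26, 5.03 and 6.02, against 4.89, 4.93 and 4.85. The groups were apart in all 3 probe sets, with differences of 0.59, 0.88 and 0.55, but the probe sets share the same RNA and are not replicates. In the average of the 3, the difference was 0.67 (adjusted p = 0.177).

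The other ligands gave smaller values. Inhba, a subunit of activin, read 7.62, 7.05 and 7.05 in Tead1KO islets, against 7.21, 7.11 and 7.15 in Flox islets. Only Tead1KO replicate 1 exceeded the Flox arrays, and the difference of 0.08 became -0.11 without it. Edn1, the precursor of the vasoconstrictor endothelin, differed by 0.10, and Tgfb2, a TGF-beta ligand within background, by 0.16.

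No matrix protein or extracellular modulator had arrays that separated the groups (0 of 6). Of all genes, 5.80% were wholly higher and 7.27% wholly lower. The count of 0 is near that share and is no result about these genes. Igfbp3, which binds insulin-like growth factors, read 9.02, 9.01 and 8.25 in Tead1KO islets, against 8.80, 9.10 and 8.94 in Flox islets. The Tead1KO mean was lower by 0.19 (difference -0.19), replicate 3 was the lowest array, and without it the difference was 0.07. Fstl1, a secreted glycoprotein related to follistatin, had the same low array, with 8.19, 8.32 and 6.72 in Tead1KO islets, against 8.12, 8.01 and 7.76 in Flox islets. Its difference was -0.22 with all arrays and 0.29 without Tead1KO replicate 3, and neither passed. Fjx1, a secreted homologue of the fly kinase four-jointed, differed by 0.37, Thbs1, which activates latent TGF-beta, by 0.20 and Ccdc80, a matrix protein, by 0.06. Crim1, a membrane protein that binds BMPs, was within background.

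Of the cell surface targets, Myof had the largest difference. Myof, the membrane repair protein myoferlin, read 6.50, 6.06 and 6.54 in Tead1KO islets, against 6.04, 5.96 and 5.91 in Flox islets. The groups were apart by a narrow margin, with a difference of 0.40 (SE 0.18, 95% interval -0.01 to 0.81, limma adjusted p = 0.680). This probe set can match several transcripts, and the other Myof probe set, within background, differed by 0.06. Tnfrsf12a, the receptor of the cytokine TWEAK, read 8.10, 7.84 and 7.75 in Tead1KO islets, against 7.48, 7.77 and 7.93 in Flox islets, and the groups overlapped (difference 0.17). Axl, the receptor tyrosine kinase for Gas6, differed by -0.03. Nt5e, which makes adenosine outside the cell, differed by 0.01, and F3, the coagulation tissue factor, was within background.

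The targets that act back on the Hippo pathway had a median difference of 0.45, and 0 of 4 passed the test. The median was 0.25 without Tead1KO replicate 1 and 0.27 with the probe sets of each gene averaged. Such averages include probe sets within background. Of these 4 genes, 3 were above background, with differences of 0.48, 0.48 and 0.42. Amotl1, an angiomotin that binds Yap1 and retains it at cell junctions, read 8.44, 8.52 and 8.23 in Tead1KO islets, against 7.95, 7.92 and 7.87 in Flox islets. The Flox arrays lay within 0.1 of each other and all Tead1KO arrays above them. The difference was 0.48 (SE 0.15, 95% interval 0.12 to 0.84, limma unadjusted p = 0.0146, adjusted p = 0.434). A second Amotl1 probe set gave 8.07, 8.53 and 7.89 in Tead1KO islets, against 7.41, 7.68 and 7.36 in Flox islets, again apart, with a difference of 0.69. Its remaining probe set differed by 0.01.

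Nuak2, a kinase related to AMPK, read 8.85, 8.53 and 8.05 in Tead1KO islets, against 8.05, 7.99 and 7.95 in Flox islets. The lowest Tead1KO array and the highest Flox array were almost equal, and the difference was 0.48 (SE 0.22, limma adjusted p = 0.686). With Tead1KO replicate 3 left out, the difference was 0.69 (adjusted p = 0.128), and with Tead1KO replicate 1 left out it was 0.29 (adjusted p = 0.898). Ptpn14, a phosphatase that holds Yap1 in the cytoplasm, read 7.35, 6.83 and 6.54 in Tead1KO islets, against 6.57, 6.45 and 6.44 in Flox islets. The groups overlapped through Tead1KO replicate 3, and the difference was 0.42 (adjusted p = 0.730), with 0.10 in its other probe set above background. It was 0.20 without Tead1KO replicate 1 and 0.15 with its probe sets averaged. Ajuba, a LIM protein that inhibits the Lats kinases, was within background.

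The 5 cytoskeletal regulators all had differences below 0 (median -0.28), and 0 of 5 passed the test. Arhgef17, a guanine nucleotide exchange factor, read 8.41, 8.26 and 7.98 in Tead1KO islets, against 8.37, 8.87 and 8.79 in Flox islets. Flox replicate 1 lay among the Tead1KO arrays, and the difference was -0.46 (SE 0.20, 95% interval -0.92 to -0.0036, limma unadjusted p = 0.0486, adjusted p = 0.668). The other 4 Arhgef17 probe sets differed by -0.38, 0.00, 0.07 and -0.04. Dlc1, a tumour suppressor at focal adhesions, read 7.41, 7.52 and 6.60 in Tead1KO islets, against 7.63, 7.75 and 7.77 in Flox islets. All Tead1KO arrays were lower, replicate 3 most, and the difference of -0.54 (SE 0.25, adjusted p = 0.689) was -0.26 without that array. With the Dlc1 probe sets averaged it was -0.08. That average includes probe sets within background, which differed by 0.16 and 0.09.

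Tagln, the smooth muscle actin-binding protein transgelin, read 6.22, 5.95 and 6.21 in Tead1KO islets, against 6.24, 6.43 and 6.56 in Flox islets. The groups were apart by a margin far smaller than their spread (difference -0.28, limma adjusted p = 0.761). Asap1, which regulates Arf proteins at focal adhesions, differed by -0.09, and Dock5, which activates Rac, by -0.04. Asap1 read 7.82, 7.82 and 6.80 in Tead1KO islets, against 7.53, 7.61 and 7.56 in Flox islets, and without Tead1KO replicate 3 its difference was 0.26. With quantile normalization 4 of the 5 genes lay below 0, and with the probe sets of each gene averaged 3 of 5 did.

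Tagln is also expressed in pericytes and smooth muscle, so markers of pericytes and fibroblasts were read beside these genes. Of 10 such markers, 0 passed the test, and at an unadjusted p under 0.05 there were 2 higher (20%, against 3.08% of all genes) and 2 lower (20%, against 4.33% of all genes) in Tead1KO (all 4 named after their values were seen). Dcn, a matrix proteoglycan, and Col1a2, a collagen chain, differed by 1.11 and 0.62. Acta2, smooth muscle actin, and Rgs5, a pericyte regulator, differed by -0.99 and -0.62. A second Col1a2 probe set above background differed by 0.20. Of the remaining markers, Cspg4 lay below 0 (-0.11). Lum, Pdgfrb, Col1a1, Col3a1 and Pdgfra lay above 0 (0.48, 0.20, 0.15, 0.06 and 0.04). The summed signal of the 10 ranged from 11.45 to 12.16 in Tead1KO arrays and from 11.75 to 12.08 in Flox arrays, and 0 of the 10 were within background in both groups. Their part in the values of the targets was not tested.

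Gadd45a, a growth arrest and DNA damage response gene, was the target with the clearest difference. It read 7.996, 7.85 and 7.69 in Tead1KO islets, against 6.92, 7.30 and 6.81 in Flox islets. The lowest Tead1KO array lay above the highest Flox array by more than the range within the Tead1KO group. The difference was 0.84 (SE 0.19, 95% interval 0.40 to 1.27, limma unadjusted p = 0.00208), and its adjusted p of 0.169 did not pass. Gadd45a was read by 1 probe set, so no other probe set bears on it. Rbms3, an RNA-binding protein, read 7.59, 8.19 and 7.66 in Tead1KO islets, against 8.14, 7.50 and 7.60 in Flox islets. At this probe set each group had a single high array (difference 0.07). An almost equally bright Rbms3 probe set read 7.87, 7.56 and 8.30 in Tead1KO islets, against 7.83, 7.39 and 7.46 in Flox islets (difference 0.35). Foxf2, a forkhead factor of mesenchyme, was within background.

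**Figure D2:**
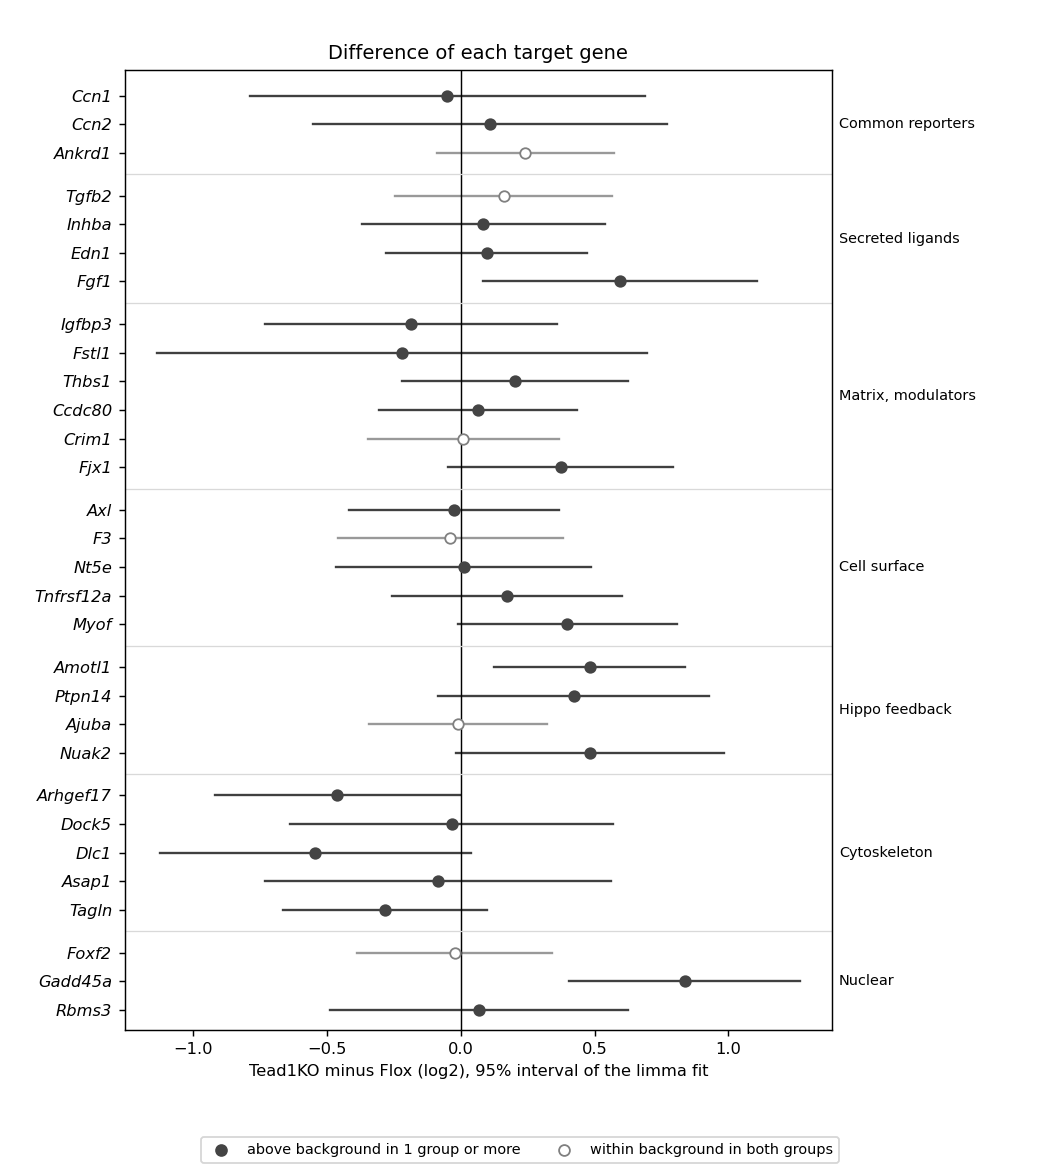
Tead1KO minus Flox difference (log2, x axis) of each target with the 95% interval of the limma fit, in the same order; open circles are targets within background in both groups. The intervals of Gadd45a, Amotl1, Fgf1 and Arhgef17 do not cross 0 before adjustment, the 5 cytoskeletal regulators lie left of 0, and the widest interval is that of Fstl1.

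**Figure D3:**
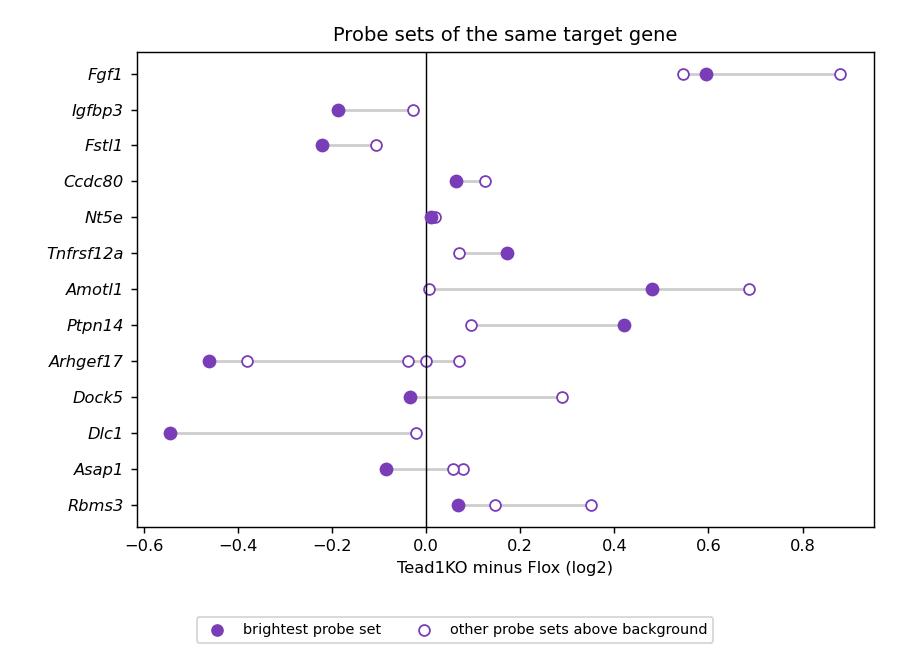
Tead1KO minus Flox differences (log2, x axis) of all probe sets above background for the 13 targets that had more than 1; filled points are the brightest probe set, open points the others. All probe sets lie on 1 side of 0 for 10 of the 13, and those of Arhgef17, Dock5 and Asap1 lie on both.

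Where several probe sets of a target could be read, they mostly had the same sign. Of 71 probe sets of the targets, 44 were above background in 1 group or more. For 13 targets with more than 1 such probe set, all had 1 sign in 10, as the plot of probe sets by gene shows. The share over all genes was not counted, and probe sets of a gene share the same RNA, so this is no result about the targets. Some equal signs belong to differences near 0, as in Nt5e (0.01 and 0.02). Sizes still differed within a gene, as in Dlc1, whose probe sets gave -0.54 and -0.02.

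The 7 genes with a GGAATG match before their start had differences on both sides of 0, and 0 passed the test. Ptpn14 differed by 0.42, Ankrd1 by 0.24, Edn1 by 0.10, Crim1 by 0.01, Ajuba by -0.01, Axl by -0.03 and Ccn1 by -0.05. Ankrd1, Crim1 and Ajuba among these were within background. The 12 measured targets whose window held no match ranged from -0.22 to 0.84 with a median of 0.08, beside 0.01 for the 7. The difference between these sets was not tested.

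Among factors and regulators of the same pathway, single genes were further apart. Of 28 listed, 27 were measured, 0 passed the test, and at an unadjusted p under 0.05 there were 3 higher (11.1%, against 3.08% of all genes) and 1 lower (3.70%, against 4.33% of all genes), with a median of -0.02. Wwc2, a scaffold that activates Lats kinases, read 6.84, 6.39 and 6.59 in Tead1KO islets, against 5.70, 5.35 and 5.24 in Flox islets. The groups were far apart, and the difference of 1.17 (SE 0.19, limma adjusted p = 0.0510) missed the threshold narrowly. Another Wwc2 probe set above background differed by -0.32, and the remaining ones, within background, by 0.06, 0.69 and 0.75.

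Wtip, a LIM protein related to Ajuba, read 9.10, 8.96 and 8.54 in Tead1KO islets, against 8.20, 7.85 and 8.01 in Flox islets (difference 0.85, limma adjusted p = 0.187). Yap1 read 7.28, 7.50 and 6.81 in Tead1KO islets, against 6.52, 6.34 and 6.48 in Flox islets (difference 0.75, adjusted p = 0.293). In both genes the groups were apart. Taok3, a kinase that acts on Stk3 and Stk4, differed by -0.53 (adjusted p = 0.300), and Wwtr1 by -0.15. The other Taok3 probe sets above background differed by -0.03 and -0.40. Further below 0 lay Mob1b at -0.89 and Limd1 at -0.83, where the groups overlapped at the brightest probe set. A second Limd1 probe set, at -0.54, had all Tead1KO arrays below the Flox arrays. The TEAD factors Tead2, Tead3 and Tead4 differed by 0.03, 0.24 and 0.13.

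Of 22 further published targets outside the 31, 20 were measured and 0 passed the test, with a median of 0.03. At an unadjusted p under 0.05 there were 3 higher (15%, against 3.08% of all genes) and 2 lower (10%, against 4.33% of all genes). Amotl2, the angiomotin closest to Amotl1, read 8.44, 8.14 and 8.34 in Tead1KO islets, against 7.63, 7.64 and 7.62 in Flox islets. The Flox arrays were nearly identical and the Tead1KO arrays all above them (difference 0.68, SE 0.15, limma adjusted p = 0.178). Tgm2, a transglutaminase, differed by 0.75 (adjusted p = 0.199) and Birc5, the mitotic protein survivin, by 0.82. The lower genes were Marcks, an actin-binding protein, at -0.56 and Emp2, a membrane protein, at -0.46. The other Emp2 probe sets, both above background, differed by 0.19 and 0.18. Lats2, a kinase that inhibits Yap1 and is itself a target, differed by 0.18 at its brightest probe set. A pair of its dimmer probe sets, within background in Flox only, had all Tead1KO arrays above the Flox arrays, with values of 5.26, 6.39 and 5.06, against 4.35, 4.89 and 4.60, in one of them. That probe set can match several transcripts, and neither passed (adjusted p = 0.824 and 0.546 over all probe sets).

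Islet hormone signal was high in all arrays, with Ins2 at 15.67 to 15.71 and Gcg, the glucagon gene, at 14.69 to 14.81. Acinar signal was high as well and varied more. The acinar markers Cela3b and Cpa1 read 13.40 to 14.86 and 11.92 to 14.33 over the arrays. Of 7 beta cell markers measured, 0 passed the test and 4 (57.1%, against 4.33% of all genes) were lower at an unadjusted p under 0.05. These were Ucn3, Nkx6-1, Slc2a2 and Pdx1, genes of beta cell maturity, with differences of -0.95, -0.95, -0.82 and -0.66, named after their values were seen. The other 3 were Ins2, Iapp and G6pc2, with differences of -0.01, 0.03 and -0.13. Ins2 held the highest value of the series (15.7), and whether signals this bright could show a change was not tested. In the short alpha, delta, endothelial, acinar, duct and macrophage lists, 0 genes had an unadjusted p under 0.05, which is near the share of all genes and is no result about those cell types.

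**Figure D4:**
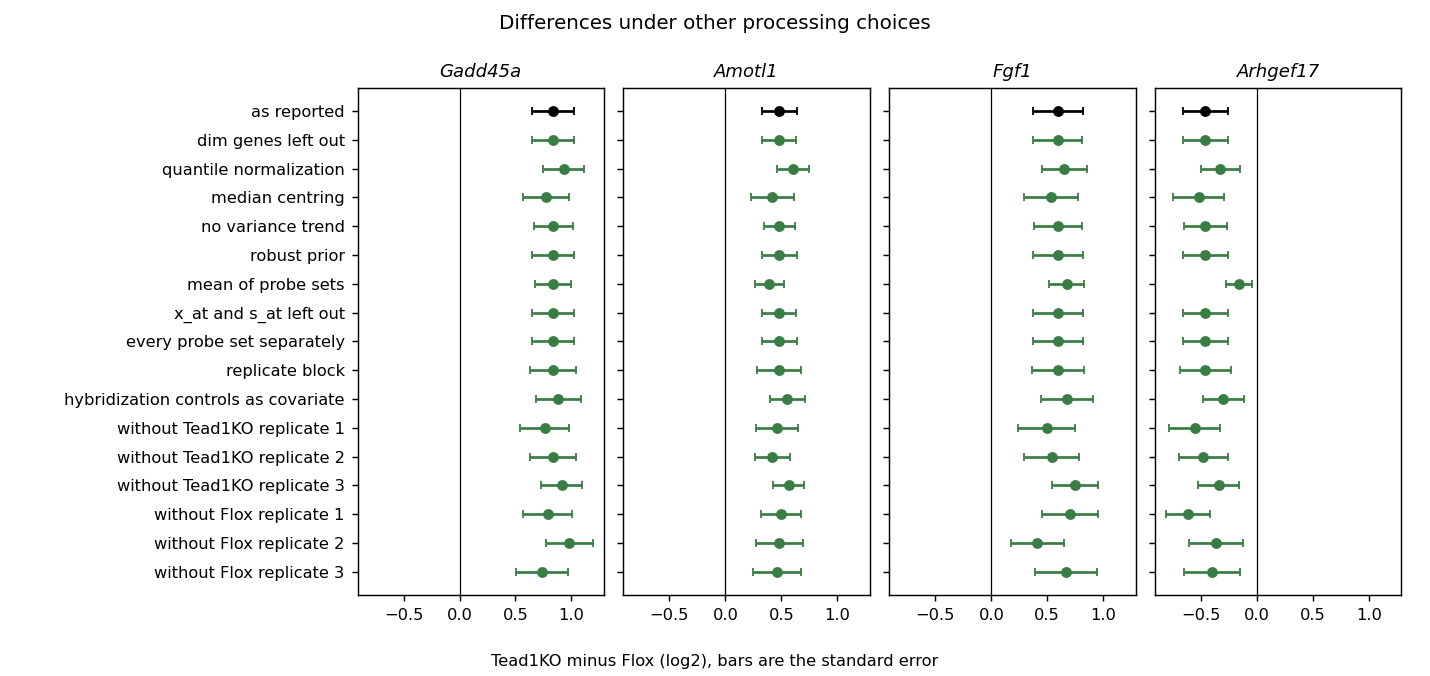
Tead1KO minus Flox difference (log2, x axis, bars are standard errors) of the 4 targets with an unadjusted p under 0.05, as reported (black) and under each alternative that changes the fit or the arrays (green). All values keep their sign; Gadd45a stays between 0.74 and 0.98, Amotl1 between 0.39 and 0.60, Fgf1 between 0.41 and 0.75 and Arhgef17 between -0.62 and -0.16.

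Of 17 alternatives, 6 leave the differences as they are and alter only the test or the genes tested. The differences of these 4 targets kept their sign under the other 11, as the plot of alternatives shows, and 0 of the 4 passed the adjusted threshold in any of the 17. Gadd45a had an unadjusted p under 0.05 in all 17, Amotl1 in 14, Fgf1 in 13 and Arhgef17 in 7. The adjusted p of Gadd45a ranged from 0.0744 with quantile normalization to 0.789 without Flox replicate 3.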

How the data were processed

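The authors deposited log2 signals per probe set. The submitters' processing notes name Affymetrix Expression Console. Version, background correction and normalization: not given in the sources used here. Values spanned 2.75 to 15.7, which fits a log2 scale. Of 45101 probe sets, 64 controls were left out, and 34945 of the others carried 1 gene symbol in the platform annotation, 932 several and 9160 none. Each gene was represented by its probe set of highest mean signal, which gave 18193 genes with no filter. Tead1KO was compared with Flox in limma 3.58.1 (R 4.3.3, lmFit, eBayes with trend, no covariate), with Benjamini-Hochberg adjustment over all genes and a threshold of 0.05. The procedure was tested on simulated data. Background was the range of 27 probe sets for unspiked bacterial transcripts. Differences are Tead1KO minus Flox in log2, and with 3 arrays a group their number limits the precision.

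The targets, the role groups, the pathway and marker lists and the alternatives were chosen with earlier results of these data known. Values per array are given for targets with an unadjusted p under 0.05, the reporters, the brightest target of each role, and others chosen after their values were seen. The labels state no pairing, and the reported fit used none. Deviations from the group means correlated at 0.06, 0.30 and -0.17 for same-numbered arrays, and at -0.39 to 0.33 for other combinations. Summed acinar signal was close for replicates 1 (14.54 and 14.52) and 2 (16.34 and 16.24), but not for replicates 3 (15.64 and 16.50). With 3 arrays a group, these values cannot decide whether same-numbered arrays were paired or shared a batch. Promoter sequences are from RefSeq, GRCm38.p6. The alternatives were omission of dim genes, median centring, quantile normalization, a robust prior, eBayes without trend, averaged probe sets, omission of _x_at and _s_at probe sets, every probe set tested, a replicate block, control signal as a covariate, a threshold of 0.1, and each array left out. Averages took in every probe set of a gene, also those within background.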

Additional observations from a re-analysis of the deposited data

How the results depend on the processing

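The count of 0 targets past the threshold held under all 17 alternatives, and the targets' median difference lay between 0.0043 with median centring and 0.145 without Tead1KO replicate 3 (0.051 to 0.145 over the 6 arrays left out in turn). The value without that array is further from the reported 0.066 than the pooled SD within groups of 0.0711. Of 296 single target values that an alternative altered, 53 changed sign, in 17 targets whose reported differences were at most 0.22 in size, and 0 of all 504 values passed the threshold. Thbs1 turned to -0.0039 with the control signal as a covariate. With the replicate block, 97 genes were called, 0 of them targets, and it changed no call of a target. The count over all genes depended more on processing: 94 as reported, 151 with quantile normalization, 58 with median centring and 242 with the control signal as a covariate. With single arrays left out it was 12, 303 and 177 without Tead1KO replicates 1, 2 and 3, and 20, 18 and 17 without Flox replicates 1, 2 and 3. The cause was not tested. Tead1 differed by -0.87 without Tead1KO replicate 2, by -0.10 without Tead1KO replicate 3 and by -0.02 with the control signal as a covariate, with no call in any. Scanner files were not used here, so background correction was not varied. For the 6 targets within background in both groups, a lower level in Tead1KO islets could not be told from background.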
